A study of Mus musculus with 2 samples.

Results

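Nucleoside diphosphate kinases and nucleoside monophosphate kinases were followed in granulocyte-monocyte progenitors (GMPs), the bone marrow progenitors of neutrophils and monocytes. The members were chosen by gene symbol, and all 9 were found among the 24421 symbols of the deposited tables: Nme1, Nme2, Nme3, Nme4, Nme6, Ak1, Ak3, Guk1 and Cmpk1. GMPs had been purified by flow cytometry from the bone marrow of female mice that were either non–tumor-bearing (NTB-GMP) or had been implanted in the mammary gland with 4T1, a mouse mammary carcinoma line that grows and spreads from that site (4T1-GMP). The labels give both groups the same F1 semi-syngeneic H-2b/d background, and they name no deleted gene and no drug for either group. The study's methods describe BALB/c and C57BL/6 hosts, and the number of mice pooled per library is not given in the sources used here. Each group had 1 library of total RNA, so no test between the groups was possible. Every interval given is a 95% interval for the counting of reads alone and holds no spread between mice or libraries. PCR reads are not independent molecules, so the intervals can be too narrow even for counting.

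These enzymes carry out the last phosphate transfers that turn a nucleotide into the triphosphate used for RNA, DNA, lipid and sugar synthesis. A monophosphate kinase moves a phosphate from a triphosphate, usually ATP, onto a particular monophosphate: Cmpk1 acts on UMP and CMP, Guk1 on GMP, and the adenylate kinases Ak1 and Ak3 on AMP. Nucleoside diphosphate kinases of the NME family then charge any diphosphate to its triphosphate through a histidine that is itself phosphorylated for a moment during the reaction. Pyrimidines made de novo or salvaged reach UTP and CTP through Cmpk1 and an NME enzyme, which places the members downstream of dihydroorotate dehydrogenase, the enzyme whose inhibition the study addresses.

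The reaction center of the NME enzymes is spelled out in the coding sequence around that histidine. It is shown because its bases differ between the members. How reads were assigned to them is not given in the sources used here. Each line gives 45 coding bases, 5′ to 3′, from the GENCODE M21 transcripts of GRCm38 (mm10), and the capitals mark the histidine codon, which is codon 118 of Nme1 and Nme2, codon 135 of Nme3, codon 150 of Nme4 and codon 129 of Nme6.
Nme1: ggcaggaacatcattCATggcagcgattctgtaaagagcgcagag
Nme2: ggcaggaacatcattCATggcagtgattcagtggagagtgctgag
Nme3: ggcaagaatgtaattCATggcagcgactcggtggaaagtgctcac
Nme4: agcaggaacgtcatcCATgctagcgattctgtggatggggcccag
Nme6: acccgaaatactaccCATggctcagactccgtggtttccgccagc
Against Nme2, 39 of the 45 bases were the same in Nme1, 35 in Nme3, 33 in Nme4 and 22 in Nme6. Nme1 and Nme2 have coding sequences of 456 bases each, of which 366 (80.3%) were identical, and 134 of the 152 codons (88.2%) encoded the same residue. The longest run of identical bases between them was 29.

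The monophosphate kinases hold their phosphate donor in a glycine-rich loop that ends in a lysine. The stretch with that loop is shown for the same reason, again as 45 coding bases with the lysine codon in capitals, which is codon 21 of Ak1, codon 20 of Ak3, codon 38 of Guk1 and codon 47 of Cmpk1.
Ak1: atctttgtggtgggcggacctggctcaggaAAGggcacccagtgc
Ak3: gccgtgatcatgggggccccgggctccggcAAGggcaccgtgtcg
Guk1: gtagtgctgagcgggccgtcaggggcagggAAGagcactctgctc
Cmpk1: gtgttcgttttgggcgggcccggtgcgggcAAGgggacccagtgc
Against Cmpk1, 33 of the 45 bases were the same in Ak1, 26 in Ak3 and 23 in Guk1.

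In GRCm38, Nme1 lies at chr11:93956979-93968521 and Nme2 next to it at chr11:93949814-93956259, both on the minus strand with 719 bases between the genes. Guk1 lies on the same chromosome at chr11:59183875-59192212 (minus strand). Nme3 is at chr17:24896500-24897522 (plus strand) and Nme4 at chr17:26091734-26095602 (minus strand). Nme6 is at chr9:109832749-109843116 (plus strand), Ak1 at chr2:32621758-32635058 (plus strand), Ak3 at chr19:29020833-29047961 (minus strand) and Cmpk1 at chr4:114959336-114987241 (minus strand). All 9 are annotated as protein-coding genes.

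The values are RPKM, reads divided by the length of the gene and the size of the library, on which levels of different genes can be set side by side as far as the authors' gene lengths, which are not given in the sources used here, allow. Whole reads could be recovered from the steps of the RPKM for 14833 of the 14833 symbols above 0 in either library, as lower bounds. They can be too low by a factor that is common to both libraries but can differ between genes, so their totals are not true library totals. The library sizes in the RPKM came to 10180365 for NTB-GMP and 30016263 for 4T1-GMP, so the same RPKM rests on 2.95 times as many reads in 4T1-GMP. Reads of Rn45s (precursor of ribosomal RNA) were 17.0% of the NTB-GMP and 6.98% of the 4T1-GMP library size. Taking it out of the library sizes moves the log2 ratio of every gene by −0.16, so each direction was also read under that and other scalings.

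Of the GMP markers, 10 of 10 were detected, among them Mpo at 5162 and 5625 RPKM (NTB-GMP first, as in every pair of values that follows), and their summed level was 10661 and 16326 RPKM. The list was split, with 6 markers higher and 4 lower in 4T1-GMP. The surface markers Kit (78.5 and 49.1 RPKM, log2 ratio −0.67), Cd34 (154 and 59.4 RPKM, −1.37) and Fcgr3 (53.1 and 28.6 RPKM, −0.89) were at least 1.5-fold lower. The surface marker Fcgr2b went the other way (47.3 and 64.6 RPKM, 0.45). The granule protease genes Elane (0.66), Ctsg (1.11) and Prtn3 (1.24) and the GMP marker Ms4a3 (1.35) were at least 1.5-fold higher. Mpo (0.12) and Cebpa (−0.36) differed by less than 1.5-fold, as did Fcgr2b. The libraries also differed in markers of other stages. The summed level of 10 mature neutrophil markers was 512 and 4050 RPKM, with 10 of 10 at least 1.5-fold higher in 4T1-GMP, whereas 9 of 9 tested monocyte and dendritic markers were at least 1.5-fold lower, with sums over the list of 175 and 35.7 RPKM. Basophil and mast cell markers were lower as well (5 of 5, sums of 425 and 171 RPKM). The erythroid and megakaryocyte list summed to 21.3 and 6.04 RPKM, with both globin genes at 0. Its 3 tested genes were at least 1.5-fold lower, with Itga2b the most abundant (12.8 and 4.43 RPKM). The stem and early progenitor list summed to 32.6 and 18.3 RPKM, with Ly6a at 0 and Meis1 highest in NTB-GMP (Meis1 17.1 and 4.73 RPKM). The B and T cell list summed to 15.3 and 12.7 RPKM, most of it Cd79b (14.7 and 12.4 RPKM). The epithelial list summed to 18.3 and 10.1 RPKM with Epcam and Krt19 at 0 in both libraries. These marker levels differed between the same libraries as the kinase values given next, and their part in those values was not tested.

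The 2 cytosolic NME genes were by far the most abundant members and both were higher in 4T1-GMP. Nme2, which encodes the B subunit of the NME hexamer and also binds DNA, stood at 129 RPKM in the NTB-GMP library and 187 RPKM in the 4T1-GMP library, from at least 1531 and 6547 reads. Its log2 ratio on the log2(RPKM + 0.1) scale was 0.54 (interval 0.46 to 0.62), a 1.45-fold difference, and 88.4% of the tested genes had a lower ratio. Nme1, which encodes the A subunit and was first known as the metastasis suppressor Nm23, stood at 86.5 and 111 RPKM, from at least 1088 and 4121 reads. Its log2 ratio was 0.36 (interval 0.26 to 0.46), or 1.28-fold, above that of 77.8% of tested genes. In bulk RNA, fewer cells of a type and less RNA per cell cannot be told apart, and this holds for every value here.

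Nme1 and Nme2 did not differ to the same extent. Within a library, where the library size cancels, the level of Nme1 was 0.672 times that of Nme2 in NTB-GMP and 0.595 times in 4T1-GMP. That ratio changed by a factor of 0.886 with a counting interval of 0.811 to 0.967, which does not include 1, with no replicate to set it against. Quantile normalization does not cancel in this way, and it gave log2 ratios of 0.13 for Nme1 and 0.27 for Nme2. The recovered length of Nme1, 1235 bases, was far from its RefSeq transcript of 3181 bases, so its level relative to other genes depends on lengths that are not known here, whereas the change of the ratio does not. The annotation also holds Gm20390, a transcript unit on the same strand that reads through both genes and shares 418 exonic bases with Nme1 and 573 with Nme2. It has no value of its own in the tables. Of the 50-base stretches of the Nme2 transcript, 25.9% also occur in genes other than Gm20390, chiefly Gm7730 and Gm5425, whereas none of those of Nme1 do.

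The remaining NME genes, whose products are tied to mitochondria, went different ways. Nme4, which encodes the enzyme of the mitochondrial intermembrane space and matrix, was the only NME member lower in 4T1-GMP under the deposited scaling and each other scaling run, at 29.6 and 22.3 RPKM. From at least 260 and 578 reads, its log2 ratio was −0.41 (interval −0.62 to −0.19), and 17.6% of tested genes had a lower one. Nme6, whose product also works in mitochondria, stood at 13.2 and 19.8 RPKM, from at least 138 and 608 reads. Its log2 ratio of 0.58 (interval 0.31 to 0.86), or 1.49-fold, was the largest among the tested members under the deposited scaling, with 90.0% of tested genes lower.

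Nme3 encodes an NME enzyme of the outer mitochondrial membrane, and its value could not be separated from no difference. It stood at 9.52 and 12.0 RPKM, and its log2 ratio of 0.33 had an interval of −0.21 to 0.92 from at least 35 and 130 reads. The recovered length of 361 bases falls short of the RefSeq transcript of 715 bases, and with the reads at 70 and 260, which bring it near that length, the interval was −0.05 to 0.74. Nme3 also overlaps other genes: its exons share 763 bases with Mrps34 on the same strand and 577 bases with Mapk8ip3 on the opposite strand, and 90.1% of its 50-base stretches occur in one or both. Mrps34 stood at 27.3 and 29.2 RPKM (log2 ratio 0.10) and Mapk8ip3 at 12.4 and 7.38 RPKM (log2 ratio −0.74). Mrps34 lies on the same strand, so counting by strand could not tell its reads of the shared bases from those of Nme3. For Mapk8ip3, whether reads were counted by strand is not given in the sources used here, so its reads cannot be told apart either.

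Within the NME sum, Nme2 held a larger share and Nme4 a smaller one in 4T1-GMP. The 5 genes together came to 268 and 352 RPKM, a log2 ratio of 0.40 or 1.32-fold. Nme2 made up 48.1% of the NME sum in NTB-GMP and 53.1% in 4T1-GMP. Nme4 made up 11.1% and 6.34%, while Nme1 held 32.3% and 31.6%, Nme6 4.94% and 5.61%, and Nme3 3.56% and 3.41%. Nme1 and Nme2 together accounted for 80.4% of the sum in NTB-GMP and 84.6% in 4T1-GMP. The ratio of Nme4 to Nme3 was 3.11 in NTB-GMP and 1.86 in 4T1-GMP, a change by a factor of 0.599 (interval 0.389 to 0.904). The ratio of Nme4 to Nme6, a pair chosen after their values were seen, was 2.24 and 1.13, a change by a factor of 0.505 (interval 0.395 to 0.643).

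**Figure D1:**
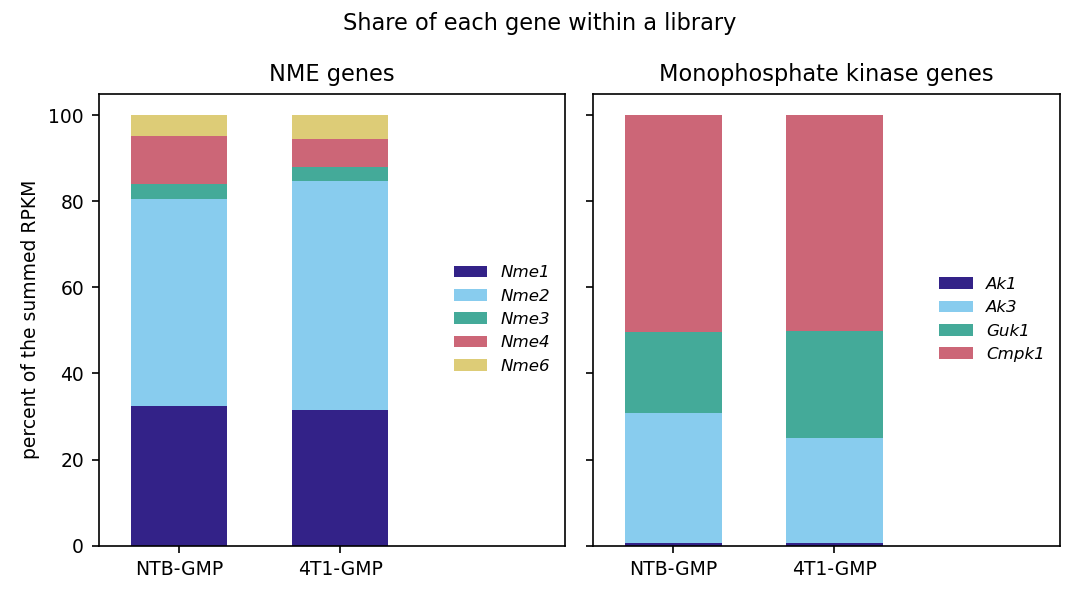
Share of each gene, in percent of the summed RPKM (y axis), within the NME genes (left) and the monophosphate kinase genes (right) for NTB-GMP and 4T1-GMP, with each bar adding to 100 percent and 1 library per bar. The Nme4 segment is 11.1% of the NME sum in NTB-GMP and 6.34% in 4T1-GMP, and the Guk1 segment is 18.9% and 24.9% of the monophosphate kinase sum.

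Among the 3 monophosphate kinases that passed the minimum level, Guk1 had the largest log2 ratio in size under the deposited scaling. Guk1, the enzyme that turns GMP and dGMP into their diphosphates, stood at 14.7 and 21.7 RPKM, from at least 170 and 740 reads. Its log2 ratio was 0.56 (interval 0.32 to 0.81), or 1.48-fold, and 89.4% of tested genes had a lower ratio. Cmpk1, which phosphorylates UMP and CMP and so serves the pyrimidine branch, was the most abundant of the monophosphate kinases at 39.1 and 43.6 RPKM, from at least 748 and 2463 reads. Its log2 ratio was 0.16 (interval 0.04 to 0.28), but its sign depends on the scaling, because it came to −0.0043 when the library sizes omitted Rn45s and to −0.014 after quantile normalization. Cmpk1 was therefore not distinguished from no difference.

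The ratio of Cmpk1 to Guk1 within a library does not depend on the library size. Cmpk1 was 2.66 times as abundant as Guk1 in NTB-GMP and 2.01 times in 4T1-GMP, a change by a factor of 0.756 (interval 0.624 to 0.913). The interval does not include 1, with no replicate to set it against. In these libraries the transcript of the guanylate kinase thus stood higher against that of the pyrimidine monophosphate kinase in 4T1-GMP. After quantile normalization, which does not cancel in the ratio, the log2 ratio was −0.014 for Cmpk1 and 0.50 for Guk1.

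Neither adenylate kinase member was higher in 4T1-GMP beyond its counting error. Ak3, the mitochondrial matrix enzyme that uses GTP to phosphorylate AMP, stood at 23.5 and 21.2 RPKM, a log2 ratio of −0.15 (interval −0.37 to 0.08) from at least 219 and 583 reads. Its recovered length of 917 bases is well short of the RefSeq transcript of 2809 bases, and at 657 and 1749 reads, which bring it near that length, the interval was −0.28 to −0.02. Ak3 exons share 430 bases with Cdc37l1, which stood at 11.7 and 9.03 RPKM, and 283 bases with the antisense gene 1700018L02Rik, listed at 0.158 RPKM in NTB-GMP and at 0 in 4T1-GMP, and reads of these pairs cannot be told apart without strand.

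Ak1, the cytosolic adenylate kinase best known from muscle and red cells, was close to absent. It stood at 0.415 and 0.634 RPKM, from at least 2 and 9 reads, and it was the only member below the mean of 1 RPKM required of tested genes. Its log2 ratio of 0.51 had an interval of −1.66 to 3.86. The recovered length of 473 bases is well short of the RefSeq transcript of 2085 bases. At 8 and 36 reads, which bring it nearest that length, the interval was −0.52 to 1.93. No difference was detectable at this depth with either. The ratio of Ak1 to Ak3 was 0.0177 in NTB-GMP and 0.0299 in 4T1-GMP, a change by a factor of 1.69 with an interval of 0.346 to 16.2.

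Summed over the 4 genes, the monophosphate kinases came to 77.6 and 87.1 RPKM, a log2 ratio of 0.17 or 1.12-fold. Cmpk1 made up 50.3% of that sum in NTB-GMP and 50.1% in 4T1-GMP. Guk1 made up 18.9% and 24.9%, Ak3 30.2% and 24.3%, and Ak1 0.535% and 0.727%. The larger share of Guk1 in 4T1-GMP thus stood beside a smaller share of Ak3. All 9 members together came to 345 and 439 RPKM, or 1.27-fold.

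Subject to the unknown gene lengths, the order of the levels was nearly the same in both libraries, as the plot of RPKM by gene shows. Nme2, Nme1, Cmpk1 and Nme4 came first, in that order, and Nme3 and Ak1 came last. Nme2 exceeded 96.5% of the tested genes in NTB-GMP and 97.2% in 4T1-GMP, and Nme1 exceeded 94.1% and 94.7%. Among neighbors in the order, the counting intervals overlapped in NTB-GMP for Nme4 and Ak3, for Guk1 and Nme6, and for Nme6 and Nme3. In 4T1-GMP they overlapped for Nme4 and Guk1, for Guk1 and Ak3, and for Ak3 and Nme6, so these 4 genes stood at about the same level there. These intervals use the lower bounds of the reads. At the 657 reads that bring Ak3 near its transcript length in NTB-GMP its interval would be narrower, so the overlap with Nme4 there may not hold.

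**Figure D2:**
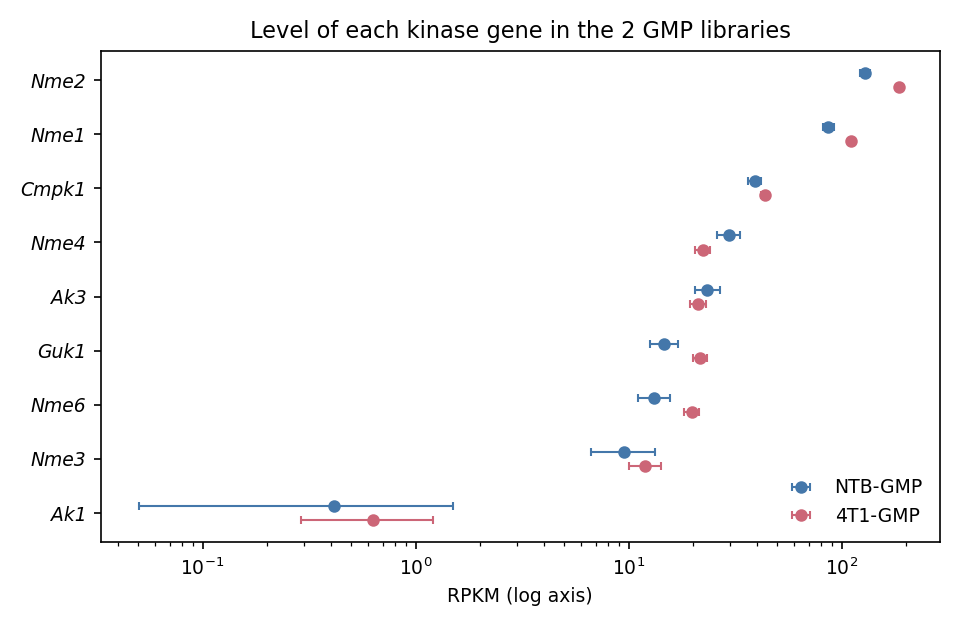
Level of each kinase gene in RPKM (x axis, log scale) in the NTB-GMP and the 4T1-GMP library, with bars for the exact 95% Poisson interval of the recovered reads and 1 library per point. Nme2 lies highest, at 129 and 187 RPKM, and Ak1 lowest, at 0.415 and 0.634 RPKM with the widest bars.

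Taking the members as a list, 8 of 9 passed the minimum of 1 RPKM, and their median log2 ratio was 0.35, beside 0.05 for all 10378 tested genes. Under the deposited scaling 6 of the 8 were higher in 4T1-GMP, and 54.7% of all tested genes were; on library sizes that omit Rn45s these were 5 of 8 and 39.1%, Cmpk1 being the one that changed sides. None of the 8 was 1.5-fold higher, against 9.8% of all tested genes, and none was 1.5-fold lower, against 11.6%. All 8 also reached a mean of 5 RPKM. Among the 7982 genes that did, the median was 0.09 and 59.9% were higher as deposited. Of those genes, 8.54% were at least 1.5-fold higher and 6.97% at least 1.5-fold lower. Nme6, Guk1 and Nme2, at log2 ratios of 0.58, 0.56 and 0.54, lay just under that limit, which is 0.585 on the log2 scale, and these 3 passed it when the recovered read totals were used as library sizes, beside 13.6% of tested genes. The 5 NME genes had a median of 0.36 with 4 higher, and the 3 tested monophosphate kinases a median of 0.16 with 2 higher, 1 of them Cmpk1 with the sign that depends on the scaling. The tested members lay between −0.41 and 0.58, and with 1 library per group the counts describe these libraries and not the conditions.

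**Figure D3:**
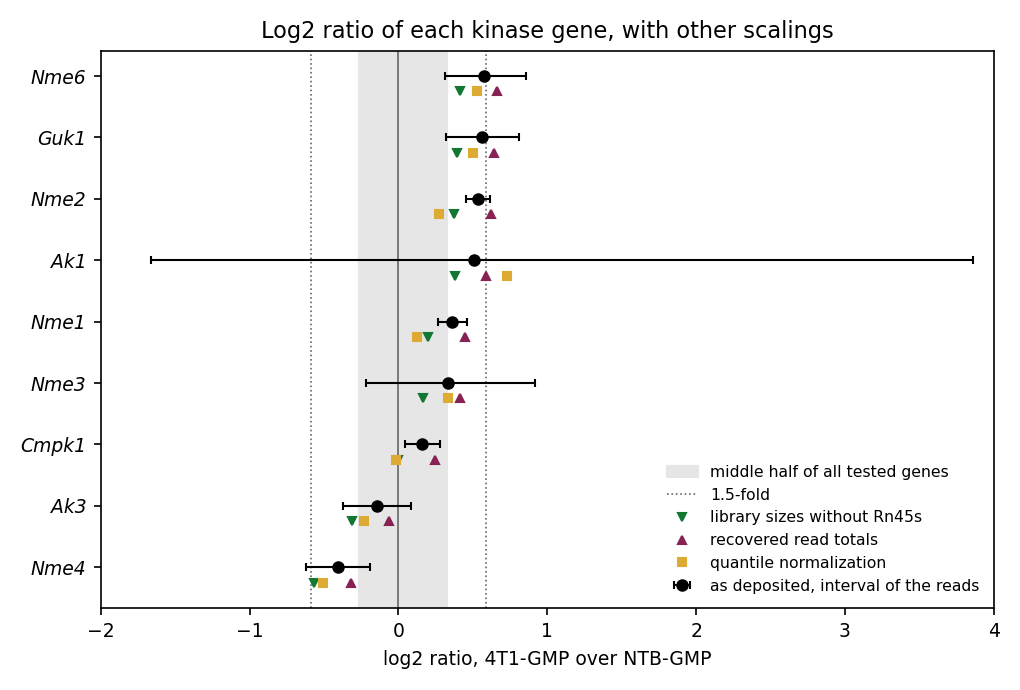
Log2 ratio of 4T1-GMP over NTB-GMP (x axis) for each kinase gene as deposited, with the 95% counting interval, and under 3 other scalings, with the gray band for the interquartile range of all tested genes and dotted lines at 1.5-fold. Nme4 and Ak3 lie left of 0 and Nme6, Guk1, Nme2, Nme1, Nme3 and Ak1 right of 0 under each scaling drawn, while Cmpk1 lies at 0.16 as deposited and at −0.0043 or −0.014 without Rn45s or after quantile normalization.

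**Figure D4:**
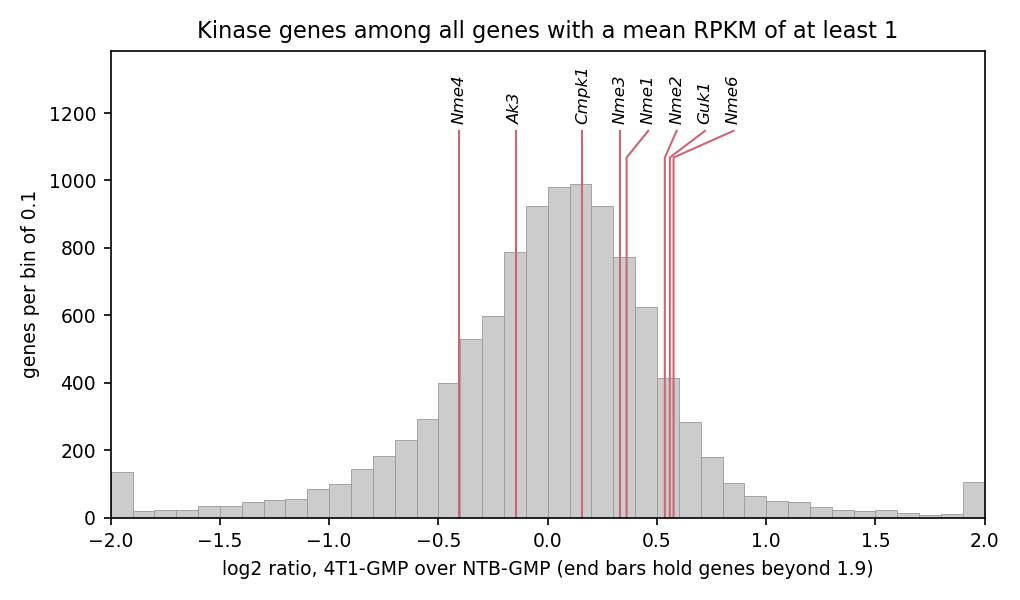
Number of genes per bin of 0.1 (y axis) by log2 ratio of 4T1-GMP over NTB-GMP (x axis) for the 10378 tested genes (mean of 1 RPKM or more), with the 8 tested kinase genes marked by red lines and the end bars holding all genes further out. The kinase genes lie between −0.41 and 0.58, with Nme6, Guk1 and Nme2 on the right shoulder and Nme4 on the left, and Cmpk1 near the peak at 0.16, a sign that turns to −0.0043 or −0.014 without Rn45s or after quantile normalization.

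The stretches before the starts of the members shared few of the motifs searched. In the 250 bases before each RefSeq start (GRCm38.p6), the E-box CACGTG, a palindrome that basic helix-loop-helix factors such as MYC and USF bind, was found before both annotated starts of Nme1 and before no start of the other 8 members. It was found before 6.02% of all starts and before 8.72% of the starts of tested genes. The 2 matches are shown with 12 bases on either side, 5′ to 3′ on the minus strand that carries Nme1, with the E-box in capitals.
Nme1 start 1, chr11:93968273-93968302: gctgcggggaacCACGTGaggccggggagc
Nme1 start 2, chr11:93968037-93968066: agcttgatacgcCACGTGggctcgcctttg
The matches began 18 and 29 bases before their starts. Much of these windows is itself transcribed according to GENCODE M21, since nearly all of the 250 bases before start 1 of Nme1, 55 before its start 2, 208 before start 2 of Nme2 and all 250 before the start of Nme3 are annotated as UTR. The GC box GGGCGG, searched on both strands, was found before a start of Nme2, Nme3, Nme4, Ak3, Guk1 and Cmpk1 and before none of Nme1, Nme6 and Ak1, beside 58.5% of the starts of tested genes. CCAAT on either strand was found before 1 start of Guk1 alone (35.8% of starts of tested genes), and TATAAA before no member (5.91%). These are matches of letters and not measured binding.

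Relatives of the members that were outside the list varied more. Ak6, a nuclear adenylate kinase with a role in ribosome maturation, stood at 13.5 and 24.7 RPKM, a log2 ratio of 0.87 (interval 0.60 to 1.15) or 1.83-fold. Ak4, an AK3-like mitochondrial protein, stood at 14.4 and 17.6 RPKM (0.28, interval 0.17 to 0.40). Ak5 and Ak7 were listed at 0 in both libraries, and Ak8 stood at 0.0626 and 0.0212 RPKM.

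The pyrimidine monophosphate kinases outside the list of members stood apart from each other. Cmpk2, the mitochondrial UMP-CMP kinase that is also an interferon-stimulated gene, stood at 3.20 and 0.627 RPKM, a log2 ratio of −2.18 (interval −2.84 to −1.88). Dtymk, the thymidylate kinase needed for dTTP, stood at 49.1 and 53.3 RPKM (log2 ratio 0.12, and below 0 without Rn45s or after quantile normalization). Of the other NME genes, Nme7, a centrosomal protein, stood at 5.08 and 5.11 RPKM (log2 ratio 0.01, interval −0.26 to 0.28), and Nme5, Nme8 and Nme9, known mainly from cilia and sperm, were listed at 0.

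The lists of nucleotide synthesis and salvage genes differed among themselves. De novo pyrimidine synthesis (Cad, Dhodh and Umps) had 2 of 3 genes higher with a median log2 ratio of 0.25, led by Dhodh at 11.2 and 13.6 RPKM (0.28). Its median came to 0.08 without Rn45s and 0.06 after quantile normalization, with 2 of 3 higher in each. De novo purine synthesis had 10 of 11 higher with a median of 0.21, but 6 of 11 without Rn45s in the library sizes and 5 of 11 after quantile normalization, led by Gmps, the GMP synthetase whose product Guk1 phosphorylates, at 37.2 and 49.1 RPKM (0.40). Neither list had a gene past 1.5-fold. Purine salvage had 5 of 6 higher with a median of 0.52, and 3 (2 without Rn45s or after quantile normalization) were at least 1.5-fold higher, namely Pnp (50.3 and 88.8 RPKM, 0.82), Ada (8.53 and 14.996 RPKM, 0.81) and Aprt (64.5 and 98.4 RPKM, 0.61). The median of purine salvage came to 0.35 without Rn45s, with 1 gene at least 1.5-fold lower, and to 0.29 after quantile normalization. In each, 5 of 6 stayed higher. Of 11 genes of pyrimidine salvage and CTP synthesis, 9 were tested and 6 were higher, with a median of 0.02 that became −0.14 without Rn45s (3 of 9 higher) and −0.03 after quantile normalization (4 of 9 higher). Dck (0.67) and Ctps (0.59) were at least 1.5-fold higher as deposited, and 0 of the 9 were without Rn45s. Of all tested genes, 54.7% were higher as deposited, 39.1% without Rn45s and 50.6% after quantile normalization. In the same order, 9.8%, 5.85% and 9.59% were at least 1.5-fold higher. The counts of these lists therefore shift along with those of all genes. These lists are described by count and median only, and nothing particular to one of them follows from that.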

How the data were processed

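The authors deposited RPKM per gene symbol, 1 table for each library. Per the labels' processing notes, CASAVA 1.8.2, cutadapt 1.2.1, TopHat2 2.0.13, Picard 1.97, HTSeq 0.6.1 and edgeR 3.12.1 were used with mm10, without roles stated. The gene lengths are not given in the sources used here. The ratio of the library sizes in the RPKM (2.95) was close to a trimmed-mean ratio of the recovered reads (2.95) and above that of their totals (2.78). The recovered reads behind both are lower bounds, short by a factor that can differ between genes. Whether the authors scaled for composition is not given.

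Ratios were taken as log2(RPKM + 0.1) for genes whose mean reached 1 RPKM, and 1.5-fold was the size rule. Reads were recovered from the steps of the RPKM, after the procedure was tested on simulated data, and gave Clopper-Pearson intervals of the ratio and exact Poisson intervals of a level (95%). A symbol was named if it was a member, another NME, adenylate or monophosphate kinase, or among the 3 largest ratios of a related list. A related gene is not reported here. The members and lists were chosen with earlier results of these data known. Alternatives were pseudocounts of 1 and 0.01, no minimum or one of 5 RPKM, library sizes without Rn45s, quantile normalization, centering on the median and, chosen after seeing the data, recovered read totals. Sequences came from GENCODE M21 (coding) and RefSeq GRCm38.p6 (promoters). Computations used Python 3.11.15, numpy 2.4.6, pandas 2.3.3, scipy 1.17.1 and matplotlib 3.10.9.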

Additional observations from a re-analysis of the deposited data

How the results depend on the processing

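Of 81 member values recomputed under 7 planned and 2 later alternatives (recovered read totals with and without Rn45s, chosen after seeing the data), 73 stayed within their counting interval, 6 moved beyond it and 2 changed sign, both for Cmpk1 (−0.0043 without Rn45s and −0.014 after quantile normalization). A change of the minimum level alone cannot alter the ratio of a gene, so the values under those alternatives stayed the same by construction. Every value that moved or changed sign did so under another scaling of the libraries, so the 73 do not measure robustness to scaling. The log2 ratio of the NME sum, 0.40, came to 0.23 with library sizes without Rn45s, 0.18 after quantile normalization, 0.48 with recovered read totals and 0.31 with those totals without Rn45s. That of the monophosphate kinase sum, 0.17, came to 0.0029 without Rn45s and 0.044 after quantile normalization. With recovered read totals, 3 members rather than 0 were at least 1.5-fold higher, beside 13.6% of tested genes. The share of tested genes higher in 4T1-GMP was 39.1% without Rn45s, 50.6% after quantile normalization, 62.2% with recovered read totals and 46.4% with those totals without Rn45s. Nme4 ranged from −0.57 to −0.32, Ak3 from −0.31 to −0.06, Nme1 from 0.13 to 0.45, Nme2 from 0.27 to 0.62, Guk1 from 0.40 to 0.64 and Nme6 from 0.41 to 0.66 over these alternatives. No paired analysis was possible because there was a single library per group, which also left no replicate to omit. With 1 library per group, the tumor, the mice and the library preparation cannot be told apart, and the low reads of Ak1 and Nme3 limit their values most.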

Other observations

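Gene groups that use or move the nucleotides made by these kinases were also read. Beside their counts, 54.7% of all tested genes were higher as deposited, 39.1% without Rn45s and 50.6% after quantile normalization. Of the adenine nucleotide carriers, which exchange ADP and ATP across the inner mitochondrial membrane, Slc25a5 stood at 388 RPKM (NTB-GMP) and 554 RPKM (4T1-GMP), with a log2 ratio of 0.51, and Slc25a4 at 65.1 and 71.5 RPKM (0.14, but 1 of the 2 carriers was higher without Rn45s in the library sizes or after quantile normalization). The AMP-activated protein kinase, which senses the AMP that adenylate kinases produce, had 5 of 7 subunit genes tested, of which 2 were higher, with a median log2 ratio of −0.14. Its catalytic subunit Prkaa1 stood at 9.71 and 11.8 RPKM (0.28) and its regulatory subunits Prkag1 at 24.5 and 29.0 RPKM (0.24) and Prkab2 at 1.48 and 1.02 RPKM (−0.50). None of the 4 creatine kinase genes reached the minimum level, with Ckb at 1.196 and 0.248 RPKM, Ckm at 0.972 and 0.659 RPKM, and Ckmt1 and Ckmt2 listed at 0.

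NME1 is known to act as a nuclease together with the SET complex. Of 6 genes of that complex and its partners, 5 were higher in 4T1-GMP, with a median log2 ratio of 0.11, against 2 of 6 and −0.06 without Rn45s and 3 of 6 and −0.01 after quantile normalization. The share of all tested genes that were higher was 54.7%, 39.1% and 50.6% in the same order. Set stood at 310 and 396 RPKM (0.35) and Apex1 at 74.8 and 95.3 RPKM (0.35), beside 0.36 for Nme1. Trex1, an exonuclease that acts with NME1 in that complex, stood at 10.6 and 5.33 RPKM, a log2 ratio of −0.98 (interval −1.33 to −0.65), and was at least 1.5-fold lower.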
